A study of Mus musculus with 10 samples.

Results

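The genes described here encode the integrins, which are cell surface receptors for the extracellular matrix, and the laminins, which are matrix proteins that many integrins bind. They were chosen by symbol, as all genes named Itga or Itgb (without the binding proteins Itgb1bp and Itgb3bp) or Lama, Lamb or Lamc plus a digit. This gave 38 genes, 28 integrin and 10 laminin genes, of 19938 genes measured. Mouse neurons of a 129Sv-C57Bl/6 background, labelled as terminally differentiated and grown in culture, were given either SP600125 or the solvent DMSO. SP600125 is a small molecule that blocks JNK, the kinases that phosphorylate JUN. Cells received 3 additions of 25 µM, 2 hours after one another, and controls received DMSO likewise. There were 5 biological replicates per group, a to e, and each was read on 1 Affymetrix whole-transcript array. Drug batch 1 served replicates a and b, and drug batch 2 the other 3 replicates. Separate cultures are not stated in the labels, so p-values measure only how far these samples spread, and part of that may be technical.

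Integrins are pairs of 1 alpha and 1 beta chain. The pair decides the ligand, and the short tail of the beta chain links through talin and kindlin to actin and to focal adhesion kinases. Laminins are trimers of 1 alpha, 1 beta and 1 gamma chain that assemble into the basement membrane, and laminin is a classical substrate for the outgrowth of neurites. Itgb1 pairs with most alpha chains found in neurons and glia, while Itgb2 and Itgb7 pair with the alpha chains of blood cells.

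All values are log2 signals as deposited, and all changes are SP600125 minus DMSO on that scale. A gene was called when limma, fitted over all genes with a term for drug batch, gave a Benjamini-Hochberg adjusted p under 0.05. A gene was taken to stand above background when its mean over the 10 arrays exceeded 5.42, the level under which 95% of 1027 olfactory receptor genes lay. By this measure 24 of the 38 genes (63.2%) stood above background. Levels of different genes are not set against each other, because probe sets differ in brightness.

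The SP600125 arrays were flatter than the DMSO arrays over all genes. The SD over genes on 1 array was 1.81 ± 0.03 in the DMSO group (n = 5) and 1.68 ± 0.03 with the inhibitor (n = 5). An exact permutation test (two-sided) gave p = 0.00794, the lowest value it can give with these group sizes. It took all splits of the 10 arrays without regard to drug batch. Dim genes thus tended to rise and bright genes to fall. All 8 markers of neurons stood above background, and so did all 8 of fibroblasts and mural cells, 6 of 7 of astrocytes and 5 of 6 of endoderm, against 3 of 10 of microglia and leukocytes. Array correlations over probe sets ran from 0.976 to 0.993, and the arrays of replicate b stood apart for some genes, some of which are given below.

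The promoters of 3 genes are shown before the values, for the member with the largest fall (Itgb1), for its alpha partner Itga5, which also fell, and for the laminin chain Lamb1. RefSeq promoters (build GRCm38.p6) were at hand for 25 of the 38 genes, with 28 windows of 250 bases before to 50 bases after the annotated start. They were searched on both strands for GGGCGG, the GC box, for CCAAT, the core of the CCAAT box, and for TGANTCA, the site of AP-1 dimers such as those of JUN. The 250 bases before each start are printed 5′ to 3′ on the strand of the gene, with matches in capitals (CCGCCC is GGGCGG on the other strand).
Itgb1, chr8:128685404-128685653, plus strand: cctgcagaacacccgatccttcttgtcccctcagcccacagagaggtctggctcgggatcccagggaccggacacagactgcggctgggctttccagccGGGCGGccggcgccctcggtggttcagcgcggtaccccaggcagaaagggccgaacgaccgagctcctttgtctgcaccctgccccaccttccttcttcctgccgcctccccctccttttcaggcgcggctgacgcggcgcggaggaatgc
Itga5, chr15:103366792-103367041, minus strand: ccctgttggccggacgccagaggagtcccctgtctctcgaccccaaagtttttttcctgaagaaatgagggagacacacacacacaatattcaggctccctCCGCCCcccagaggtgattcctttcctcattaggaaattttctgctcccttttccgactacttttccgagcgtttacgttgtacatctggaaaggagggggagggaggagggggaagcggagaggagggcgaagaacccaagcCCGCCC
Lamb1, chr12:31265043-31265292, plus strand: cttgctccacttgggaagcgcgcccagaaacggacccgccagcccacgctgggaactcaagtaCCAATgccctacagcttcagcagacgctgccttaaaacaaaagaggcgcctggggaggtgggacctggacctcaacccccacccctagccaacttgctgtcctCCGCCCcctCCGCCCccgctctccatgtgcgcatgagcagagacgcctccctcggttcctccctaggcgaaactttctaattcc

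Positions are those of the first base of a match, with the annotated start at 1 and the base before it at -1. GGGCGG lay at -151 in Itgb1, at -149 and -6 in Itga5 and at -84 and -75 in Lamb1, whose CCAAT lay at -187. In the same windows, GGGCGG lay just after the start of Itgav (base 8) and Lama2 (base 18). It was thus found in all 4 genes called lower that had a promoter, in 1 of the 4 called higher (Itgam) and in 12 of the 25 genes, and 35.7% of 32851 promoters of this length held it. CCAAT was found in 5 of the 25 genes, against 37.4% of all promoters, and TGANTCA in 3 (Itga3, Itga9 and Itgax), against 7.81%. None of the 4 lower and 4 higher genes with a window held CCAAT or TGANTCA in it. The called genes Itgb4, Itgad, Itgae and Lama4 had no promoter at hand. The 4 lower genes with a window all stood above background, while Itgam and Itgb7 of the 4 higher ones did not. Whether a match goes with the direction of change was not tested. A match is a description of the letters, not a site in use.

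The first comparison asked which integrin and laminin genes responded to SP600125. Of the 38 genes, 5 fell, 7 rose and 26 did not pass, where 46.9% of all genes were called in either direction. Itgb1, the common beta chain, fell by 0.32 (SE 0.06, n = 5 per group), or 1.25-fold, and Itgb4, the beta chain that pairs with Itga6 as a laminin receptor, rose by 0.32 (SE 0.07), also 1.25-fold. The alpha chains Itgav and Itga5 fell with Itgb1, and so did the laminin chains Lama2 and Lama4. Of the 7 genes that rose, 5 belong to the leukocyte integrins and 4 did not stand above background.

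Over all genes, 29.9% were called lower and 17% higher, against 13.2% and 18.4% of the 38. The median change was 0.08 over the 38 genes and -0.03 over all genes. The sign of the former turned after quantile normalization (-0.013), after median centring (-0.021) and when dim genes were filtered out (-0.043). It was 0.12 over the integrins and -0.07 over the laminins. How calls divided into lower and higher depended on the scaling. The split was 3 to 2 after quantile normalization, where 22.5% of all genes were lower and 7.51% higher. It was 9 to 3 after median centring (43.1% and 7.52% of all genes), 4 to 9 after centring on named genes (25.3% and 22.3%) and 3 to 4 after cyclic loess (17.7% and 9.44%). Median centring also moved the median of all genes to -0.13.

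**Figure D1:**
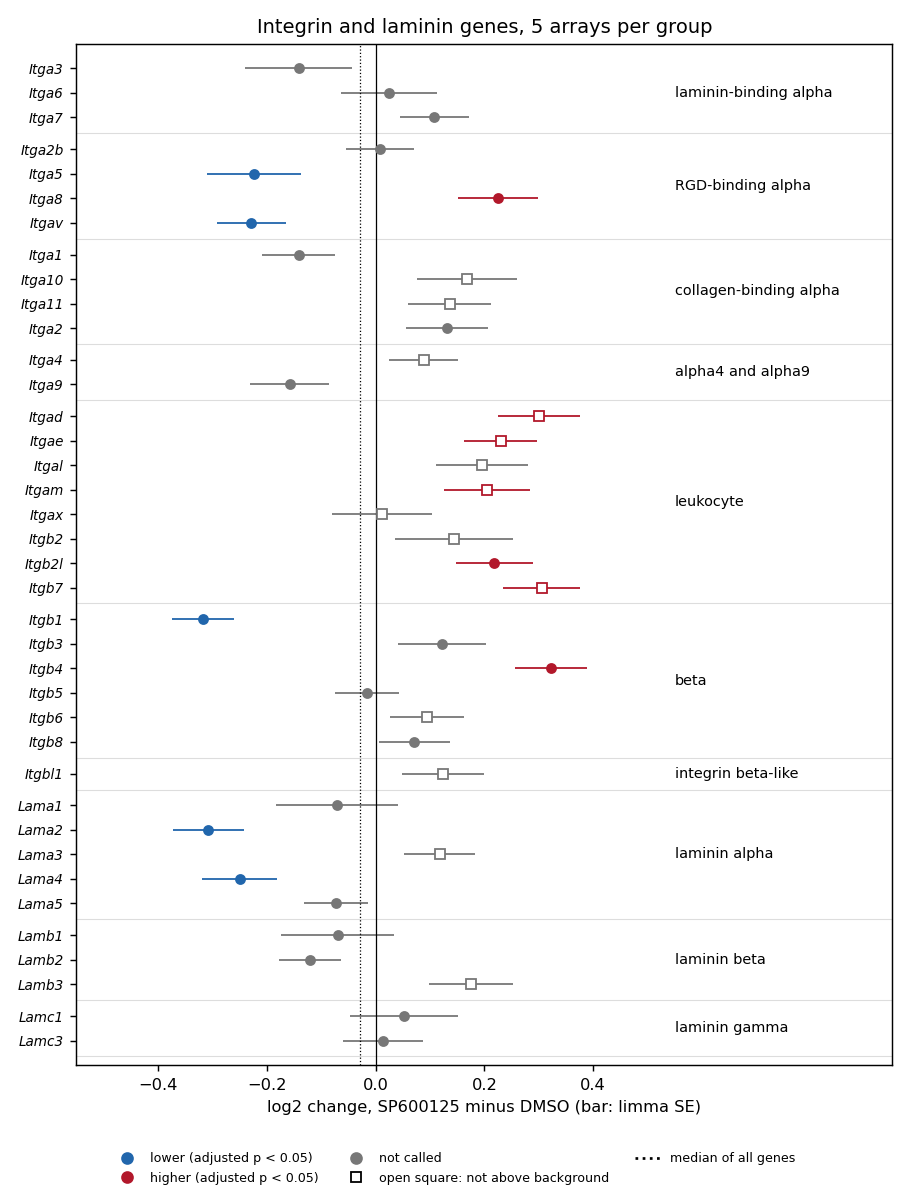
Log2 change of each of the 38 genes (x axis, SP600125 minus DMSO, bars are the limma SE), grouped by role on the y axis. Blue genes were called lower and red genes higher; open squares did not stand above background, and the dotted line is the median of all genes (-0.03). Changes ran from -0.32 (Itgb1) to 0.32 (Itgb4).

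Signal level and change were set side by side, since both moved together over all genes. Among genes with a mean log2 signal of 9 and over, 59.8% were called lower, and of the 5 members in that class (Itgb1, Itgb8, Lama1, Lamb1 and Lamc1) only Itgb1 was; 2.68% of all genes in that class, and none of the 5, were called higher. Among genes between 7 and 9, 62.5% were called lower, and of the 5 members there (Itga1, Itga6, Itgav, Itgb5 and Lamb2) only Itgav was; 2.66% of all genes in that class, and none of the 5, were called higher. Median changes in these classes were -0.20 and -0.23 for all genes and -0.07 and -0.12 for the members. Between 5 and 7, 27.3% of all genes were called lower and 17.5% higher, against 3 and 3 of 17 members. Below 5, 30.1% of all genes were called higher and 2.18% lower, against 4 and 0 of 11 members.

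**Figure D2:**
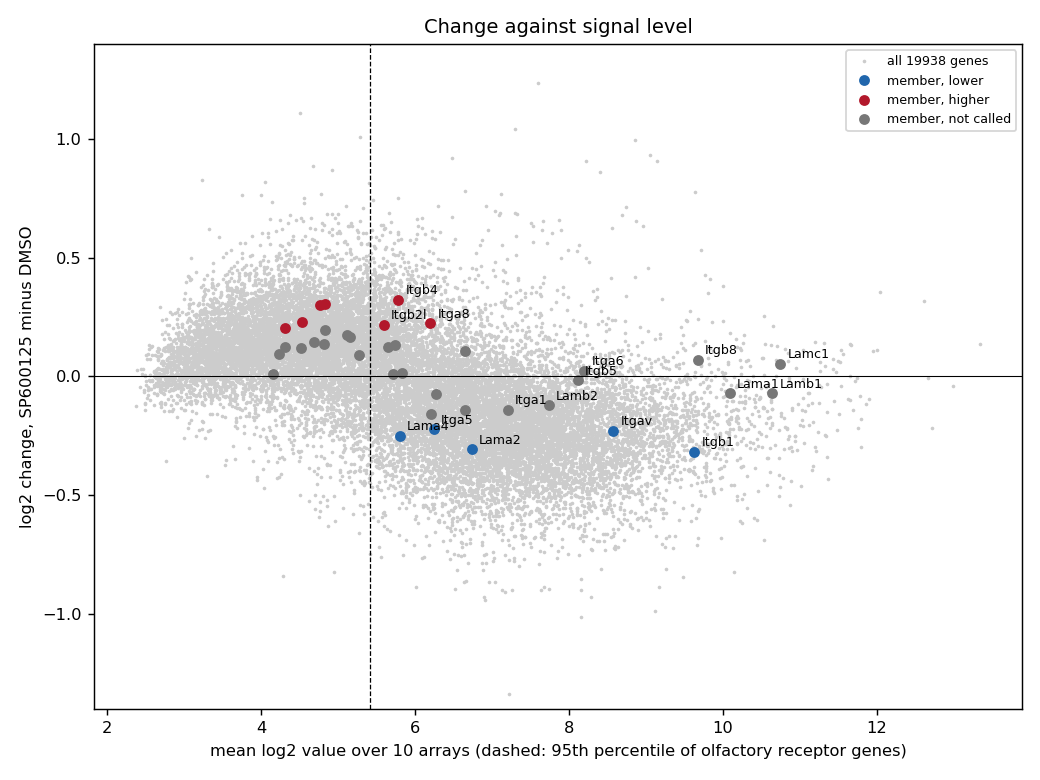
Log2 change (y axis) against the mean log2 value over 10 arrays (x axis) for all 19938 genes (grey) and the 38 members, coloured by call. The dashed line marks 5.42, the background level taken from olfactory receptor genes. Dim genes lie mostly above 0 and bright genes below it, and Itgb8, Lama1, Lamb1 and Lamc1 lie near 0 at the bright end.

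Laminin chains come first, as ligands. Lama2, the alpha chain of the laminin of muscle and peripheral nerve, read 6.92, 7.05, 6.89, 6.79 and 6.78 on DMSO arrays a to e. On SP600125 arrays a to e it read 6.58, 6.65, 6.67, 6.43 and 6.56, so every treated array lay below every control array. Lama2 fell by 0.31 (SE 0.06, limma adjusted p = 0.00219), by 0.37 in drug batch 1 and by 0.27 in drug batch 2.

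Lama4, the alpha chain typical of vessel walls and nerve sheaths, also separated the groups. Its DMSO values were 5.78, 5.95, 5.92, 5.85 and 6.10, and its SP600125 values 5.70, 5.76, 5.60, 5.64 and 5.66. It fell by 0.25 (SE 0.07, limma adjusted p = 0.00944). All SP600125 arrays lay below all DMSO arrays for 4 of the 38 genes, Itgb1, Itgav, Lama2 and Lama4, against 16.4% of all genes. Lama5, another alpha chain of basement membranes, was at -0.07 (SE 0.06, limma adjusted p = 0.321) and passed only after median centring (-0.17). The epithelial chain Lama3 was not above background (0.12, SE 0.07, limma adjusted p = 0.149).

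Lama1, Lamb1 and Lamc1 together form laminin-111, the laminin of early embryonic basement membranes. Lama1 read 10.10, 10.29, 10.06, 10.06 and 10.10 on DMSO arrays a to e and 10.17, 9.53, 10.21, 10.16 and 10.20 on the SP600125 arrays. Lamb1 read 10.69, 10.81, 10.66, 10.62 and 10.60 after DMSO and 10.70, 10.13, 10.78, 10.66 and 10.77 after SP600125. Lamc1 read 10.77, 10.83, 10.67, 10.63 and 10.69 after DMSO and 10.87, 10.34, 10.92, 10.87 and 10.85 after SP600125. In each of the 3 chains SP600125 replicate b was the lowest of the 10 arrays and DMSO replicate b the highest of its group.

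The changes of these chains were -0.07 (SE 0.11) for Lama1, -0.07 (SE 0.10) for Lamb1 and 0.05 (SE 0.10) for Lamc1, and limma adjusted p-values were 0.619, 0.599 and 0.678. Without SP600125 replicate b the changes were 0.07, 0.06 and 0.17, and Lamc1 then passed (limma adjusted p = 0.0263). Without both b arrays they were 0.10, 0.08 and 0.19, and Lamc1 passed again (limma adjusted p = 0.0186). In drug batch 2 alone Lamc1 rose by 0.22 (limma adjusted p = 0.0227), with values of 0.12 for Lama1 and 0.11 for Lamb1 that did not pass.

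SP600125 replicate b lay below the mean of the other 4 SP600125 arrays by 0.66 for Lama1, 0.59 for Lamb1 and 0.54 for Lamc1. Of all genes, 0.105%, 0.201% and 0.296% were as low on that measure, whose 1st percentile was -0.41. Over the 24 genes of the basement membrane list the median of this difference was -0.02 and the range -0.38 to 0.34, with 2 genes under -0.3. Col4a1 and Col4a2, the common chains of collagen IV, lay at -0.33 and -0.38, Sparc, a collagen-binding matrix protein, at -0.25 and Nid2, a linker of laminin and collagen IV, at -0.25, while Agrn (agrin) lay at 0.01, Col18a1 at 0.12 and the laminin receptor Bcam at 0.30. Among the 6 endoderm markers, the transcription factors Gata4, Sox17 and Gata6 lay at -0.52, -0.42 and -0.29, Afp was not above background, and Ttr (0.12) and Foxa2 (0.03) were not low. The mean over the endoderm markers ran from 6.09 to 6.28 on DMSO arrays and from 6.05 to 6.29 on SP600125 arrays, with replicate b the highest of the first and the lowest of the second. On SP600125 replicate b the 8 neuronal markers all lay above the mean of the other SP600125 arrays, by 0.26 to 0.90 with a median of 0.53. That median was -0.19 over the endoderm markers. The part of either set of markers in the laminin values was not tested. In bulk RNA, fewer cells of a type and less RNA per cell cannot be told apart.

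**Figure D3:**
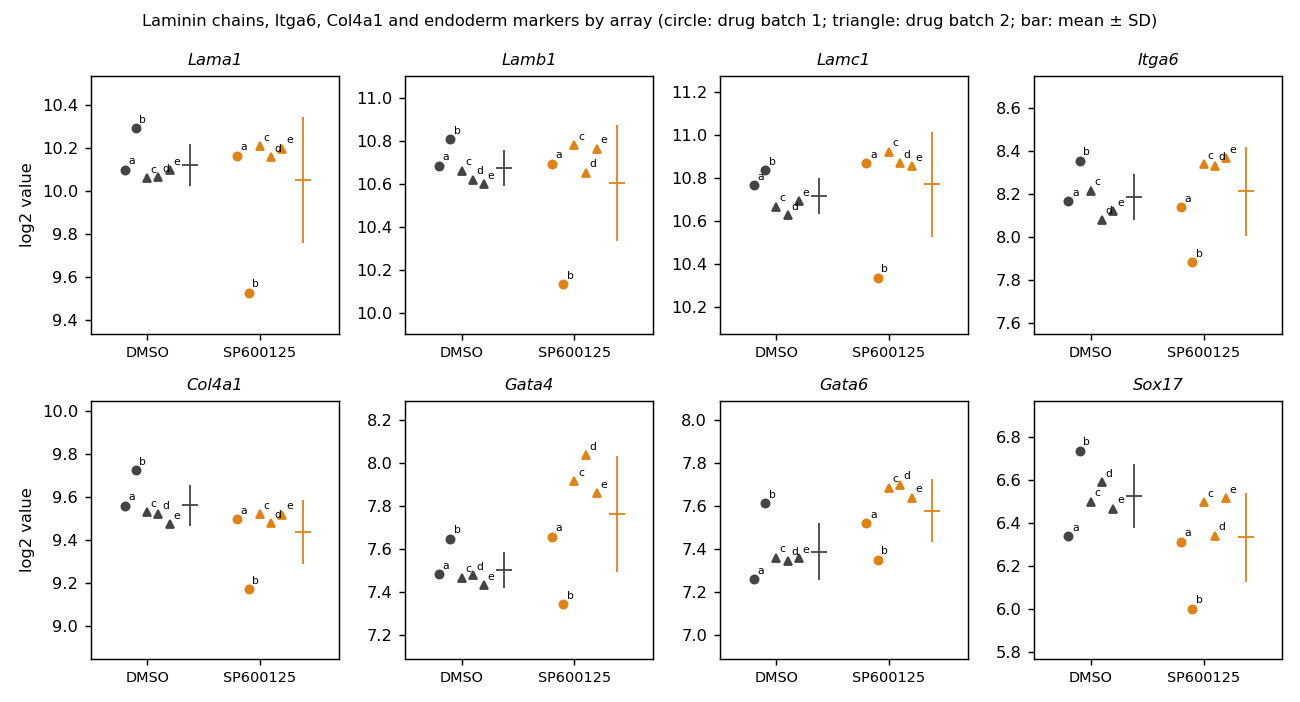
Log2 values by array (y axis) for the 3 chains of laminin-111, Itga6, Col4a1 and 3 endoderm markers in DMSO and SP600125 arrays (x axis). Letters name the replicates, circles are drug batch 1 and triangles batch 2, and bars are mean ± SD (n = 5). SP600125 replicate b lies lowest in 7 of the 8 panels; Gata6 is the exception, with the lowest value on DMSO replicate a.

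The remaining laminin chains did not pass. Lamb2, the beta chain of synaptic basement membranes, ran from 7.67 to 7.85 after DMSO and from 7.51 to 7.82 after SP600125 (-0.12, SE 0.06, limma adjusted p = 0.0929), and passed only after median centring (-0.22). Lamb3, an epithelial chain that was not above background, stood at 0.18 (SE 0.08, limma adjusted p = 0.0761). It passed without DMSO replicate b, its highest control array (0.24, limma adjusted p = 0.0184), and with arrays centred on named genes (0.21, limma adjusted p = 0.0308). Lamc3 was at 0.01 (SE 0.07).

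Receptor beta chains were led by Itgb1. It read 9.85, 9.88, 9.72, 9.73 and 9.74 on DMSO arrays a to e and 9.54, 9.42, 9.53, 9.43 and 9.41 on SP600125 arrays. All treated arrays lay below all control arrays, by 0.38 in drug batch 1 and 0.27 in drug batch 2 on average. Its limma adjusted p was 0.00092.

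Itgb4, known for the hemidesmosomes of epithelia and from Schwann cells, went the other way. Its DMSO values were 5.59, 5.66, 5.63, 5.75 and 5.46 and its SP600125 values 5.96, 5.96, 5.86, 5.88 and 6.04, with no overlap between the groups (0.32, SE 0.07, limma adjusted p = 0.00196). In drug batch 1 it rose by 0.34, and in drug batch 2 by 0.31. All SP600125 arrays lay above all DMSO arrays for Itgb4 and Itga8, 2 of the 38 genes, against 6.65% of all genes. Its partner Itga6 did not rise with it, as given below.

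Itgb1, Lama2 and Lama4 stayed lower and Itgb4 higher, past the threshold, in all 20 alternative fits that used both drug batches. Itgb1 ran from -0.42 to -0.19 over these fits and Itgb4 from 0.22 to 0.36. Lama2 ran from -0.41 to -0.20 and Lama4 from -0.35 to -0.20. All 4 passed in drug batch 2 alone, and none in drug batch 1 alone, where 1 gene of 19938 passed in all.

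Other beta chains did not pass. Itgb5, a vitronectin receptor chain, had a change of -0.02 (SE 0.06), and Itgb8, a chain of astrocytes and neural progenitors that activates latent TGF-beta, of 0.07 (SE 0.07). Itgb8 read 9.63, 9.81, 9.67, 9.57 and 9.50 after DMSO and 9.63, 9.71, 9.75, 9.72 and 9.72 after SP600125, so the groups overlapped, and it passed only after cyclic loess (0.20, limma adjusted p = 0.0354). Itgb3, the beta chain of platelets and osteoclasts, was at 0.12 (SE 0.08). Itgb6 (0.09, SE 0.07), an epithelial chain, was not above background, nor was Itgbl1 (0.12, SE 0.08), which encodes a secreted protein related to beta chains.

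Alpha chains that bind the RGD motif of fibronectin and vitronectin moved both ways. Itgav read 8.65, 8.72, 8.67, 8.69 and 8.71 after DMSO and 8.45, 8.35, 8.51, 8.37 and 8.63 after SP600125, with all treated arrays lower (-0.23, SE 0.06, limma adjusted p = 0.0101). Its fall did not pass after quantile normalization (-0.08, limma adjusted p = 0.404) or cyclic loess (-0.05, limma adjusted p = 0.58). It passed in the other 18 of 20 fits that used both drug batches. In drug batch 2 alone the change was -0.19 and did not pass (limma adjusted p = 0.0856), nor did that of -0.29 in drug batch 1 alone.

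Itga5, the alpha chain of the main fibronectin receptor, read 6.34, 6.23, 6.44, 6.32 and 6.45 after DMSO and 5.85, 6.28, 6.32, 6.22 and 5.99 after SP600125. The groups overlapped, and replicates a and e held the lowest treated values. The fall was 0.22 (SE 0.09, limma adjusted p = 0.0449), near the threshold, and it passed in 9 of 20 alternative fits. It did not pass without DMSO replicate a, c or e or without SP600125 replicate a, d or e, with values between -0.23 and -0.16.

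Itga8, an alpha chain of mesenchyme and of hippocampal synapses, rose by 0.22 (SE 0.07, limma adjusted p = 0.0226). It read 6.14, 6.14, 6.13, 5.90 and 6.12 after DMSO and 6.23, 6.15, 6.45, 6.40 and 6.32 after SP600125, so the groups did not overlap but SP600125 replicate b lay next to the DMSO values. Drug batch 1 gave a change of 0.05 and drug batch 2 one of 0.34. It did not pass after median centring (0.12), without DMSO replicate d (0.17) or without SP600125 replicate c (0.19) or d (0.21). Itga2b, the platelet chain, was at 0.01 (SE 0.06).

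**Figure D4:**
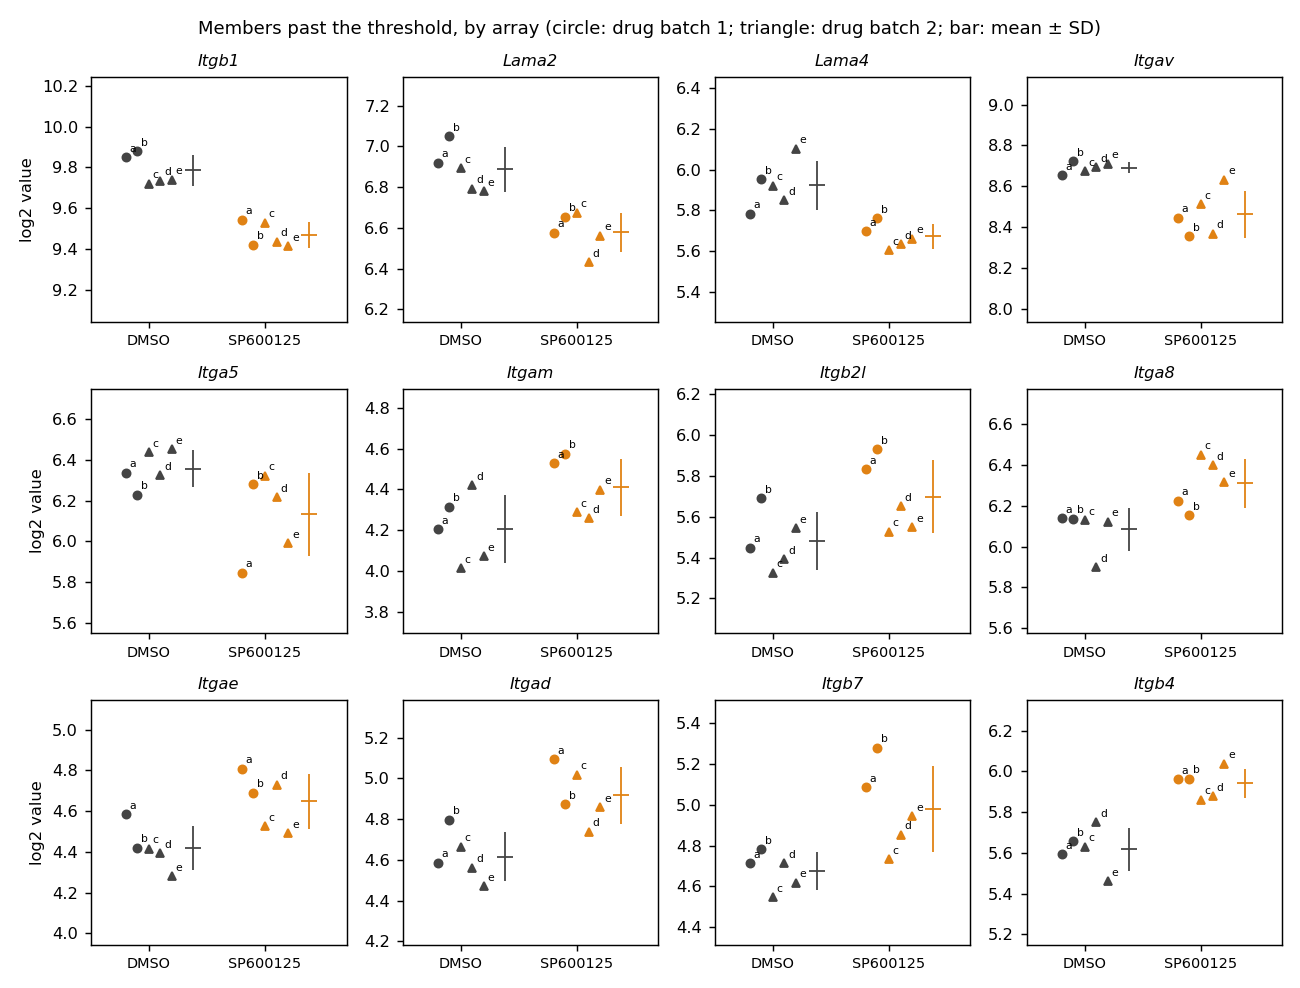
Log2 values by array (y axis) of the 12 called genes in DMSO and SP600125 arrays (x axis), ordered from the largest fall to the largest rise; panels share 1 span but not 1 origin. Letters name the replicates, circles are drug batch 1 and triangles batch 2, and bars are mean ± SD (n = 5). Itgb1, Lama2, Lama4 and Itgav lie lower on every SP600125 array, Itga8 and Itgb4 lie higher, and the groups overlap in the other 6.

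None of the 3 laminin-binding alpha chains was called. Itga6, the laminin receptor chain of neural progenitors, read 8.16, 8.35, 8.21, 8.08 and 8.12 after DMSO and 8.14, 7.88, 8.34, 8.33 and 8.37 after SP600125. Its change was 0.02 (SE 0.09, limma adjusted p = 0.835), made of -0.25 in drug batch 1 and 0.21 in drug batch 2, where it passed when that batch was fitted alone (limma adjusted p = 0.0343). In SP600125 replicate b it lay 0.41 below the other treated arrays, and 0.978% of all genes were as low. Without both b arrays it was at 0.15 (limma adjusted p = 0.0796).

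Itga3 read 6.70, 6.22, 6.96, 6.83 and 6.90 after DMSO and 6.55, 6.59, 6.61, 6.64 and 6.50 after SP600125. DMSO replicate b lay below every treated array, while the other 4 DMSO arrays lay above all of them. The change was -0.14 (SE 0.10, limma adjusted p = 0.244), and without DMSO replicate b it was -0.26 and passed (limma adjusted p = 0.00787). Itga7, known from muscle and from regenerating axons, had a change of 0.11 (SE 0.06) and passed only after cyclic loess (0.20, limma adjusted p = 0.0316).

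Collagen-binding alpha chains did not pass. Itga1 (-0.14, SE 0.07, limma adjusted p = 0.0981) passed without SP600125 replicate b (-0.18) and after median centring (-0.24), and Itga2 was at 0.13 (SE 0.08). Itga10 (0.17, SE 0.09) and Itga11 (0.14, SE 0.08) were not above background, and Itga10 passed without DMSO replicate c (0.24). Itga9, a receptor for tenascin, was at -0.16 (SE 0.07, limma adjusted p = 0.0879) and passed after median centring (-0.26), without DMSO replicate a (-0.20) and without SP600125 replicate b (-0.20). Itga4, which binds fibronectin and VCAM1, was not above background (0.09, SE 0.06).

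Of the 8 leukocyte integrin genes, 5 rose, none fell and 3 did not pass, and 7 of the 8 were not above background. Among all genes not above background, 30.9% were called higher and 3.3% lower. The median olfactory receptor gene read 3.65 ± 0.07 on DMSO arrays and 3.89 ± 0.04 on SP600125 arrays (n = 5 per group). That difference had p = 0.00794 in an exact permutation test (two-sided), again the lowest value it can give and without regard to drug batch. The part of the rise of olfactory receptor genes in the leukocyte integrin changes was not tested. Itgb7, the beta chain of gut-homing lymphocytes, rose by 0.31 (SE 0.07, limma adjusted p = 0.00399), from 4.54 to 4.78 on DMSO arrays to between 4.73 and 5.28 on SP600125 arrays. Itgad rose by 0.30 (SE 0.07, limma adjusted p = 0.00563), Itgae by 0.23 (SE 0.07), Itgb2l by 0.22 (SE 0.07) and Itgam by 0.21 (SE 0.08). The groups overlapped in each of these 5. A further probe set of Itgad, left out by the rule of 1 probe set per gene, was at -0.05 (SE 0.07), and with the mean of both Itgad was at 0.12 and did not pass (limma adjusted p = 0.124). Itgal (0.20, SE 0.08), Itgb2 (0.14, SE 0.11), the shared beta chain of these receptors, and Itgax (0.01, SE 0.09) did not pass.

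After quantile normalization and after cyclic loess none of the 8 was called. Itgam passed in only 4 of 19 alternative fits, and among single arrays only the fits without DMSO replicate d or SP600125 replicate d kept it. Itgb2l was lost without DMSO replicate a (0.17) or c (0.20) and without SP600125 replicate d (0.21), and Itgal passed without DMSO replicate d (0.26) or SP600125 replicate d (0.24). Of 10 markers of microglia and leukocytes, 5 rose and none fell. Cx3cr1 and Trem2 rose among the 3 markers above background, where 7.93% of all such genes were called higher. C1qb, Tyrobp and Aif1 rose among the others, where 30.9% of all genes not above background were called higher. Of the 10 markers, 2 were called higher after quantile normalization, 1 after median centring and 2 after cyclic loess. The mean of the list ran from 4.84 to 5.09 after DMSO and from 5.08 to 5.23 after SP600125. Only Cx3cr1, Trem2 and Cd68 of them stood above background, while the pan-leukocyte marker Ptprc (mean 4.19) and the macrophage receptor Csf1r (mean 4.30) did not. The part of these cells in the leukocyte integrin values was not tested.

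The second comparison asked whether the response differed between the drug batches. In limma, 0 of the 38 genes passed for the interaction of treatment and drug batch, and 0% of all genes did. At an unadjusted p under 0.05 there were 8 of the 38 (Itga3, Itga6, Itga8, Itga10, Itga11, Lama1, Lamb1 and Lamc1), against 9.29% of all genes. The treatment change of the 3 laminin-111 chains and Itga6 was greater in batch 2 than in batch 1 by 0.42 to 0.47, and for these SP600125 replicate b, 1 of the 2 treated arrays of batch 1, was the lowest array. The median change over the 38 genes was 0.07 in batch 1 and 0.10 in batch 2.

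Genes that work with integrins were counted in the same fit, and their counts are set against the 12055 genes above background, of which 47.3% were called lower and 7.93% higher with a median of -0.16. Of 35 genes of the adhesion machinery inside the cell, 33 stood above background. Of the 35, 19 fell, all of them among these 33, 2 rose and 14 did not pass. The median over the 35 was -0.15, near that of all genes above background. Tln2, the neuronal talin that binds beta tails, fell by 0.51 (SE 0.08), the exchange factor Arhgef7 by 0.39 (SE 0.08), the adaptor Crk by 0.37 (SE 0.07) and Lims1 (PINCH), a partner of integrin-linked kinase, by 0.35 (SE 0.06). The 2 that rose were Fermt1 (0.21, SE 0.07), a kindlin that was not above background, and Parvb (0.17, SE 0.06), a parvin. After cyclic loess 3 of the 35 were called lower, after quantile normalization 9 and after median centring 28, with none higher in these fits. Over all genes, dim ones included, these fits called 17.7%, 22.5% and 43.1% lower.

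Other ligands of integrins made up the next list. Of 23 measured, 21 stood above background. Of the 23, 14 fell, all of them among these 21, none rose and 9 did not pass, with a median of -0.27. Thbs1 (thrombospondin) fell by 0.99 (SE 0.12) and Reln (reelin), which guides migrating neurons, by 0.57 (SE 0.11). Edil3, a matrix ligand of Itgav pairs, fell by 0.55 (SE 0.14) and Tnc (tenascin C) by 0.53 (SE 0.06). Thbs1 read 8.94 on DMSO replicate b, against 9.75 to 9.80 on the other control arrays. On SP600125 replicate b, Edil3 read 7.93, against 7.02 to 7.47 on the other treated arrays. Reln read 9.10 there, against 8.51 to 8.74, and the groups overlapped for both Edil3 and Reln. Fn1, fibronectin, fell by 0.48 (SE 0.06). Of some chains of its receptors described above, Itgb1, Itgav and Itga5 fell, Itga5 near the threshold and in 9 of 20 alternative fits. Itga8 rose by 0.22 (SE 0.07), and Itga4 (0.09, SE 0.06), Itga2b (0.01, SE 0.06) and the beta chain Itgb3 (0.12, SE 0.08) did not pass. After cyclic loess and after quantile normalization 11 of the 23 were called lower and 1 higher. After median centring 15 were lower and none higher.

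Partners of laminin in the basement membrane showed 11 falls (45.8%) and no rise among 24 genes, all above background, with a median of -0.17. Both values lie near those of all genes above background. Pomgnt1, an enzyme that glycosylates dystroglycan for laminin binding, fell by 0.45 (SE 0.07), Hspg2 (perlecan) by 0.41 (SE 0.06), Col18a1, a collagen of basement membranes, by 0.39 (SE 0.06) and Smoc2 by 0.38 (SE 0.09). Dystroglycan itself (Dag1), the main laminin receptor outside the integrin family, fell by 0.19 (SE 0.06), and Nid1, the linker of laminin to collagen IV, was at 0.06 (SE 0.06). After cyclic loess 4 were called lower and 1 higher. After quantile normalization 6 were lower and after median centring 19, with none higher in either. Of 13 membrane proteins that associate with integrins, 11 stood above background. Of these 11, 5 fell, where 47.3% of all genes above background were called lower. Among the 5 were Lrp1 (-0.38, SE 0.07), Cd82 (-0.30, SE 0.07), Tspan4 (-0.29, SE 0.09) and Bsg (-0.26, SE 0.08). After cyclic loess and after quantile normalization 1 of the 13 was called lower, and after median centring 9.

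Markers of other cells moved beside the falls of Itgb1, Itgav, Itga5, Lama2 and Lama4, which fibroblasts and mural cells express as well. Of 8 fibroblast and mural markers, all above background, 5 fell (Col1a1, Tagln, Acta2, Col1a2 and Col3a1) and none rose, where 47.3% of all genes above background were called lower. The mean of the list ran from 9.19 to 9.25 after DMSO and from 8.76 to 8.89 after SP600125. Dcn, another marker of fibroblasts, was at 0.01 (SE 0.07). Of 8 neuronal markers 7 fell, and their mean ran from 9.05 to 9.43 after DMSO and from 8.72 to 9.30 after SP600125, where replicate b was the lowest control and the highest treated array. Among 7 endothelial markers 1 rose (Cldn5) and 1 fell (Kdr), among 7 astrocyte markers 1 rose and 3 fell, and among 6 epithelial markers 2 fell. Of 6 endoderm markers none fell and 1 rose, Gata4 (0.26, SE 0.10, limma adjusted p = 0.0439), near the threshold. Its change was -0.06 for replicates a and b and 0.48 for replicates c to e. Gata6 (0.19, SE 0.08) and Sox17 (-0.19, SE 0.09) did not pass. Counts of lower and higher endoderm markers were 0 and 2 after quantile normalization and 2 and 0 after median centring. Of 5 platelet markers 1 rose (Gp5). Beside these rises, 7.93% of all genes above background and 30.9% of all genes not above it were called higher. The part of all these cell types in the integrin and laminin changes was not tested.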

How the data were processed

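The authors deposited log2 expression values for 35556 probe sets on each array, and the submitters' processing notes name oligo 1.14.0. How background, normalization and summarization were handled is not given in the sources used. The log2 scale was inferred from the range, 1.8984 to 13.8294.

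Probe sets were named from the platform annotation, where 21789 carried 1 symbol, 1621 several and 12146 none. For a gene with several probe sets, the brightest on average was kept. Itgad had a further probe set, and 3 probe sets shared by Itgam and Rpl35 were left out.

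The two-sided test was limma's (version 3.58.1, R 4.3.3; lmFit and eBayes), with drug batch as a term, 7 residual degrees of freedom and adjustment over all 19938 genes. The script was tested on simulated data. The members and lists were chosen with earlier results of these data known. Every member is named. Values on every array were to be given for members changed by at least 0.4 on the log2 scale, which none was, and for Itgb1, Itgav, Lama1, Lamb1 and Lamc1; the others shown by array were chosen after their values were seen. From each list of adhesion genes the up to 4 largest called changes are named, and Fn1, Dag1, Nid1 and the genes low on SP600125 replicate b were added after their values were seen. Protein sequences are not used here.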

Additional observations from a re-analysis of the deposited data

Results flagged for a closer look

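In 6 of 76 groups of 5 arrays (38 genes in 2 groups), or 7.89%, 1 array lay far from the others by Dixon's criterion, where chance gives about 1 in 20. SP600125 replicate b was the low array in 3 of them. Lama1 read 9.53 there against 10.16 to 10.21 on the other SP600125 arrays, Lamb1 read 10.13 against 10.65 to 10.78, and Lamc1 read 10.34 against 10.85 to 10.92. In DMSO, Lama1 was high on replicate b at 10.29, against 10.06 to 10.10 on the other arrays. Itga8 was low on DMSO replicate d at 5.90, against 6.12 to 6.14, and Itga2 was high on SP600125 replicate e at 5.93, against 5.75 to 5.79.

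For a pair of genes the SP600125 arrays lay on opposite sides of the DMSO arrays in the drug batches. Itga6 had a change of -0.25 in batch 1 and 0.21 in batch 2, and Itgb5 of -0.12 in batch 1 and 0.05 in batch 2. The interaction of treatment and batch did not pass for either (limma adjusted p = 0.484 for Itga6 and 0.646 for Itgb5).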

How the results depend on the processing

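The 38 genes gave 5 lower and 7 higher calls with a median of 0.08. Counts of lower and higher calls were 3 and 2 after quantile normalization, 9 and 3 after median centring, 4 and 9 after centring on named genes, 3 and 4 after cyclic loess, and 5 and 3 of the 24 genes left by the filter on dim genes. With that filter, 50.3% of all genes left were called lower and 8.63% higher. The median was -0.013 after quantile normalization, -0.021 after median centring and -0.043 with the filter, against its sign, and 0.11 after centring on named genes and 0.027 after cyclic loess. With 1 array left out at a time, lower calls ran from 4 to 7, higher calls from 5 to 7 and the median from 0.058 to 0.11. Over all genes these fits called 25.6% to 31.9% lower and 12% to 17.4% higher. Drug batch 1 alone gave 0 and 0 calls, with 4 arrays in the fit, and drug batch 2 alone 4 and 5 with a median of 0.10. In batch 2 alone, 27.3% of all genes were called lower and 11.1% higher. Without both arrays of replicate b, a setting chosen after seeing the data, the counts were 6 and 8 and the median 0.11. There, 31.6% of all genes were called lower and 17.1% higher. The fit with the replicate letter as a replicate block gave 4 and 6 calls, where 26.6% of all genes were lower and 14.8% higher. In limma, Itga5 (adjusted p = 0.063) and Itgam (adjusted p = 0.0672) were lost in that fit. Same-letter arrays correlated between -0.21 and 0.10 in their deviations from the group means, and c alone matched its own letter best. The interaction count stayed 0 in every fit run. Over single genes and settings, 65 values lost the call, 23 gained it and none changed sign while called. For the 14 genes not above background, low signal limits what a change can show.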
